A study of Mus musculus with 191 samples.

Results

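The 18 bone marrow libraries from mice treated with anti-Ly6G, out of 191 samples in the series, were compared across the day. They were chosen by their labels alone: tissue bone marrow and treatment anti-Ly6G clone 1A8, with 3 libraries per time point at ZT 1, 5, 9, 13, 17 and 21 (Zeitgeber time, ZT, counts hours since the lights came on). Clone 1A8 is a monoclonal antibody to Ly6G, a surface protein of mouse neutrophils. The mice were C57BL/6 of wild-type genotype. They received 3 µg of antibody per g of body weight on each of 2 days and tissue was taken the day after, following a cheek bleed. The nearest comparison group was 18 bone marrow libraries of the same strain, doses and times from mice given control IgG. The purpose of the study was to follow daily transcription in tissues with and without neutrophils. Part of the colony lived in cabinets whose light cycle was shifted by 12 h; which mice these were is not in the labels, so cabinet and ZT cannot be told apart in any result below. The length of the light phase is not in the labels, and ZT 13, 17 and 21 were taken as the dark times. The labels call the libraries separate mice at each time, and the mice are numbered here 1 to 3 within a time in the order of deposition, which is a name and not a pairing.

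The mammalian clock is a feedback loop in which BMAL1 (gene Arntl) with CLOCK or NPAS2 switches on the Per, Cry, Nr1d and D-box factor genes. The products of the Per and Cry genes in turn repress these activators, and those of the Nr1d genes repress Arntl. The loop drives daily rhythms of metabolism in most tissues, timed by light and by feeding. Mice eat mainly at night, so genes of fat use and of fat synthesis commonly run in opposite phases. Bone marrow is a mixture of developing neutrophils, red cell precursors, B cells, megakaryocytes, macrophages and stroma, and it releases and takes back blood cells on a daily schedule. In such bulk tissue a lower level of a gene can come from fewer cells of a type or from less RNA per cell, and the 2 cannot be told apart here.

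The values are a deposited normalized signal, scaled to library depth, and 1 read equalled 0.0510 to 0.0821 units in the anti-Ly6G libraries, whose totals lay between 12.0 and 19.6 M reads. The marrow label fitted its markers: the erythroid list summed to 56788 to 135216 units, the mature neutrophil list to 14415 to 27619 and the B cell list to 850 to 1418. The libraries are labelled as neutrophil depleted, a state checked in blood per the labels. In the marrow the mature neutrophil sum overlapped with that of the IgG libraries, 13761 to 21637. Ly6g itself lay between 91.4 and 175 units with anti-Ly6G and between 79.7 and 129 with IgG, and the azurophil granule list summed to 4032 to 6052 units against 2936 to 4192. ZT 13 mouse 1 stood apart from the other libraries at that time, with a mature neutrophil sum of 27619 against 16151 and 15889 and an erythroid sum of 56788 against 90152 and 84266. ZT 5 mouse 1 held the most skeletal muscle RNA, 2412 units over the muscle list against 67.6 to 920.4 in the other 17 libraries, and its Acta1 (skeletal actin) was 541. ZT 1 mouse 1 had the highest heat shock sum, 6330 units.

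Genes were tested with limma by an F test of a 24 h cosine and sine on log2(value + 1), with Benjamini-Hochberg adjustment over 14289 genes and a threshold of 0.05. Of these genes 58 were rhythmic with anti-Ly6G (0.406%), and 1785 had an unadjusted p under 0.05. With IgG 232 were rhythmic (1.62%). A test among the 6 times that assumed no wave shape called 498 genes with anti-Ly6G (3.49%) and 396 with IgG (2.77%). Of the 498, 53 were among the 58, which is 91.4% of the rhythmic genes and 10.6% of the genes that differed by time. The fitted peaks of the 58 gathered around midday and around midnight. From ZT 4 to 8 there were 15 peaks and from ZT 8 to 12 there were 13, against 3 from ZT 0 to 4, and the night held 15 peaks from ZT 16 to 20 against 6 in each of the bins beside it. Over all 14289 genes each of these 4 h bins held between 2278 and 2601 fitted peaks. The median peak-to-trough fold of the 58 was 1.52, against 1.11 over all genes, and it ranged from 1.15 to 3.08, with 9 genes above 2. At the threshold, Zmiz1 (adjusted p = 0.0494) and Bank1 (0.0496) were inside and Cyfip2 and Mrvi1 (both 0.0503) outside. The count depended on single libraries: it was 28 without ZT 5 mouse 1, 31 without ZT 9 mouse 2, 35 and 38 without ZT 21 mouse 3 and mouse 2, 36 without ZT 5 mouse 2, 38 without ZT 17 mouse 3 and 147 without ZT 1 mouse 1. The count of 498 fell to 177 without ZT 5 mouse 3, to 281 without ZT 13 mouse 1, to 285 without ZT 5 mouse 2 or ZT 9 mouse 2 and to 295 without ZT 21 mouse 1.

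**Figure D1:**
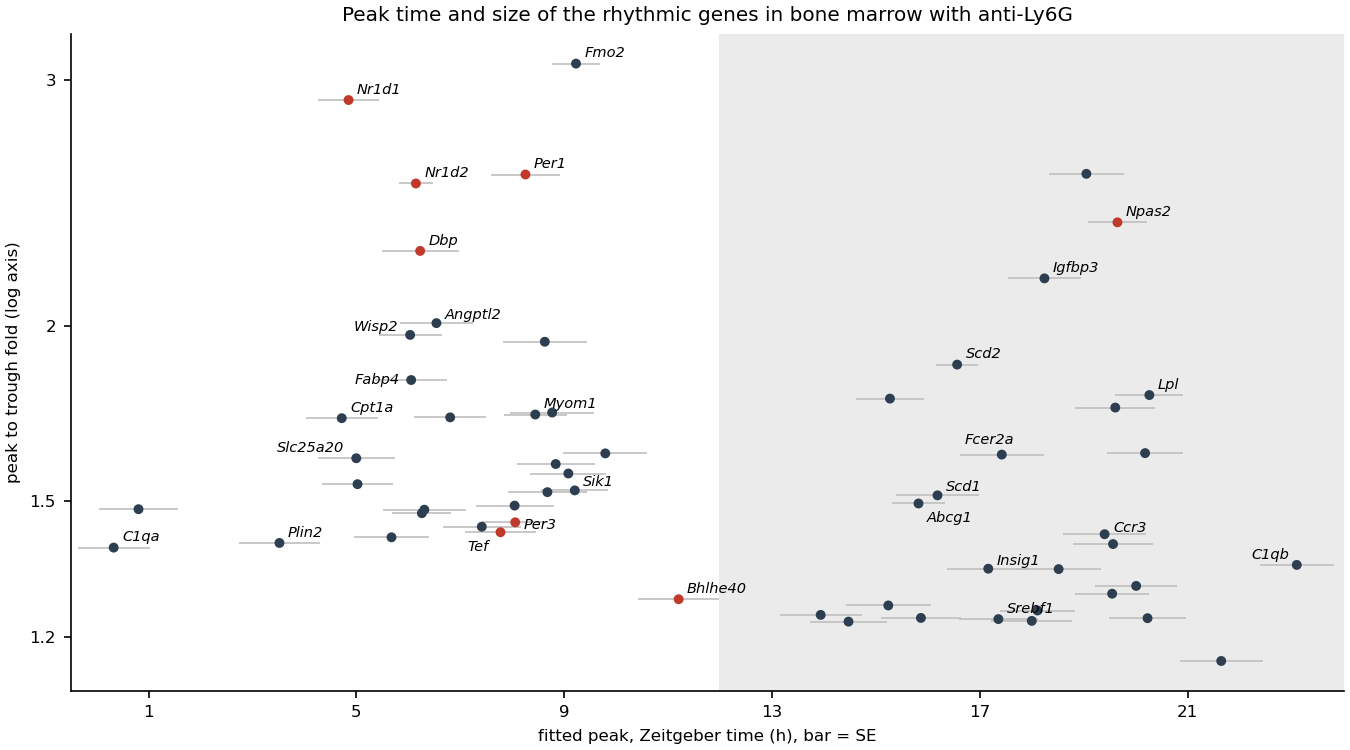
Fitted peak time (x axis, hours ZT, with bars of 1 SE) and peak-to-trough fold (y axis, log scale) of the 58 genes rhythmic in bone marrow with anti-Ly6G, core clock genes in red and the dark times shaded. Clock genes other than Npas2 and genes of fatty acid use lie between ZT 3 and ZT 12, and the desaturases Scd1 and Scd2 lie between ZT 16 and ZT 17.

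Core clock genes led the rhythm: 8 of the 18 tested members of the list passed, against 0.406% of all genes, and the median amplitude of the list was 0.23 on the log2 scale against 0.07 over all genes. Nr1d1 (GRCm38 chr11:98767932-98775333, minus strand), which encodes the repressor REV-ERB alpha, measured 3.20, 5.83 and 4.43 units at ZT 1, 8.19, 6.96 and 8.06 at ZT 5, 5.62, 4.29 and 4.08 at ZT 9, 0.883, 2.12 and 1.87 at ZT 13, 2.45, 3.18 and 2.16 at ZT 17, and 2.37, 1.90 and 1.46 at ZT 21. All ZT 5 libraries were above every library of the other times, and the dark times were low, with ZT 21 overlapping both ZT 13 and ZT 17, which did not overlap each other. Its fitted peak was at ZT 4.85 ± 0.58 h (SE) with a 2.90-fold range, a log2 amplitude of 0.77 ± 0.12 and adjusted p = 0.0013. Nr1d2 (chr14:18204054-18239127, minus strand), the partner repressor REV-ERB beta, measured 15.7, 19.4 and 15.0 at ZT 1, 28.0, 22.8 and 27.8 at ZT 5, 20.1, 21.7 and 20.5 at ZT 9, 12.5, 12.0 and 13.4 at ZT 13, 10.4, 11 and 10.8 at ZT 17, and 9.46, 9.92 and 9.02 at ZT 21. No 2 of the 6 times overlapped, and every light library was above every dark one. The peak lay at ZT 6.14 ± 0.32 h, with a 2.53-fold range and adjusted p = 3.8e-09, and the dark times were lower by a log2 difference of -0.88 ± 0.07.

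The D-box activators followed. Dbp measured 1.82, 3.03 and 2.95 at ZT 1, 4.61, 4.81 and 3.42 at ZT 5, 4.03, 3.94 and 4.97 at ZT 9, 1.62, 1.23 and 1.11 at ZT 13, 2.19, 2.92 and 1.52 at ZT 17, and 1.06, 1.66 and 0.937 at ZT 21. It was high at ZT 5 and ZT 9 with no overlap with the dark times, and peaked at ZT 6.23 ± 0.74 h (2.26-fold, adjusted p = 0.0218). Its call was lost without any 1 of 5 libraries (ZT 5 mouse 1 or 2, ZT 9 mouse 2, ZT 21 mouse 1 or 3), where the adjusted p reached 0.0715. Tef, a related activator, peaked at ZT 7.77 ± 0.68 h with a range of 1.43-fold (adjusted p = 0.0112). Of the Period genes, which encode repressors of the loop, Per3 peaked at ZT 8.05 ± 0.63 h (1.45-fold, adjusted p = 0.00485) and was lowest at ZT 21, at 15.6, 15.6 and 13.6 units against 16.8 to 26.5 at all other times. Per1 is also a direct target of stress hormone and cAMP signals. It measured 23.5, 26.9 and 18.5 at ZT 1, 34.4, 46.9 and 64.5 at ZT 5, 27.2, 69.4 and 39.0 at ZT 9, 59.6, 22.7 and 39.1 at ZT 13, 17.2, 27.1 and 18.5 at ZT 17, and 18.2, 22.7 and 17.9 at ZT 21. The mice at ZT 5, 9 and 13 were spread widely. All of ZT 5 and ZT 9 lay above every library of ZT 1, 17 and 21, ZT 9 mouse 1 only just, and ZT 13 mouse 2 lay among those times. Its fitted range was 2.57-fold with a peak at ZT 8.25 ± 0.67 h (adjusted p = 0.0085). With IgG Per1 had a fitted range of 1.17-fold (adjusted p = 0.853), and the test of the difference in rhythm did not pass (adjusted p = 0.986). Bhlhe40, a repressor that binds E-boxes, peaked at ZT 11.2 ± 0.78 h (1.28-fold, adjusted p = 0.0333), a call lost without any 1 of 10 libraries, with an adjusted p of up to 0.104.

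Npas2, an activator that can stand in for CLOCK, ran opposite to these genes. It measured 0.544, 0.823 and 0.746 at ZT 1, 0.452, 0.736 and 0.252 at ZT 5, 0.335, 0.466 and 0.223 at ZT 9, 0.490, 0.589 and 1.03 at ZT 13, 1.61, 0.601 and 2.67 at ZT 17, and 2.05, 3.16 and 2.25 at ZT 21. The ZT 21 libraries were all above those of ZT 1 to ZT 13 but overlapped with ZT 17, where mouse 2 stayed low. The peak was at ZT 19.6 ± 0.56 h (2.37-fold, adjusted p = 9.5e-04). Arntl, the partner activator, had its fitted peak at ZT 19.5 but did not pass (1.33-fold, adjusted p = 0.212). Cry1, a repressor with a late phase, had a fitted peak at ZT 15.8 (adjusted p = 0.175) and was higher at ZT 13 than at the other times by a log2 difference of 0.36 ± 0.10 (adjusted p = 0.0390), a call lost without ZT 13 mouse 1 (adjusted p = 0.489), ZT 1 mouse 3 (0.0508) or ZT 9 mouse 2 (0.0513). Per2 had a fitted range of 1.24-fold at ZT 11 (adjusted p = 0.342). Clock, Cry2, Ciart, Hlf, Rora, Nfil3 and Bhlhe41 did not pass either. Nr1d1, Nr1d2, Npas2, Per1, Per3 and Tef stayed past the threshold when any 1 library was left out.

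**Figure D2:**
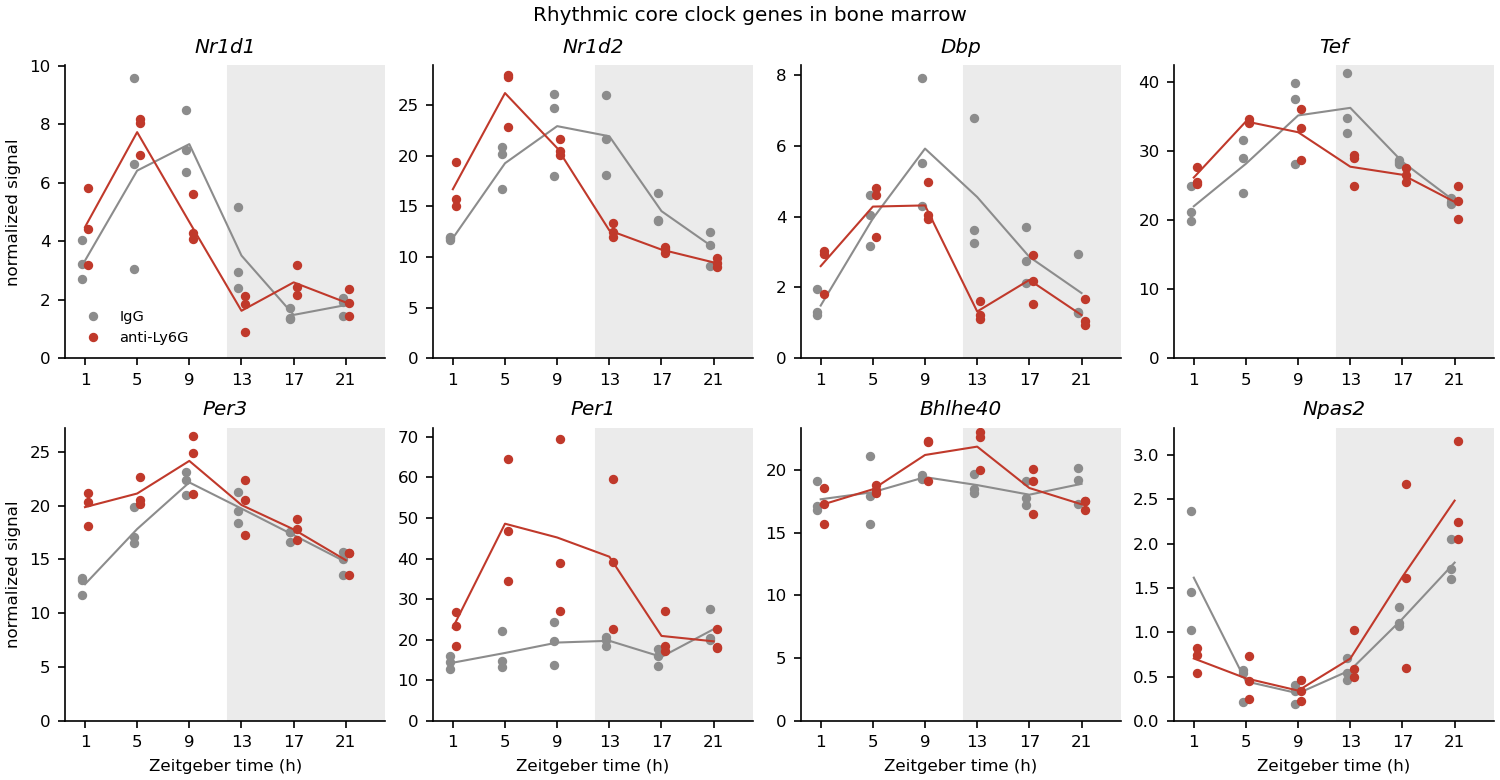
Normalized signal (y axis) of the 8 rhythmic core clock genes in each library by Zeitgeber time (x axis, h), anti-Ly6G in red and IgG in grey, lines through the means of 3 libraries and the dark times shaded. With anti-Ly6G Nr1d1 falls from 6.96 to 8.19 units at ZT 5 to 0.883 to 2.12 at ZT 13, while Npas2 reaches 2.05 to 3.16 at ZT 21.

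In textbook accounts these genes are driven through short elements near their start sites, so the promoter windows of the rhythmic members were read. RefSeq (GRCm38.p6) gave 9 windows of 300 bases (250 before and 50 after a start site) for 7 of the 8 rhythmic clock genes. Bhlhe40 had none. The windows were searched on both strands for the E-box CACGTG, bound by BMAL1 with its partners, the D-box TTANGTAA, bound by DBP and TEF, the cAMP response element TGACGTCA and the ROR element bound by REV-ERB and ROR proteins, and none of these matches overlapped another. The E-box was in 7.15% of all 32851 windows, the D-box in 2.32%, the cAMP response element in 1.79% and the ROR element in 0.384%. Among the 9 windows an E-box stood in 3, from Per1 and from both Tef starts, and a pair of D-boxes stood in the window of Per3. The 250 bases before these 4 start sites are shown, 5′ to 3′ on the gene's strand, because they are the windows with a match, and capitals mark the matched motif.
Per1, chr11:69098699-69098948, plus strand, E-box at -166: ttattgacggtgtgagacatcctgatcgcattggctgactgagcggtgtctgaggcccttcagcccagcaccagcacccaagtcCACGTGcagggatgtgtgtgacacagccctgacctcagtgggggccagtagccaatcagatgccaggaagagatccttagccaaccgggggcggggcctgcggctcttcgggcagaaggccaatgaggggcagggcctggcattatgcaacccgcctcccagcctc
Tef, first start, chr15:81802423-81802672, plus strand, E-box at -127: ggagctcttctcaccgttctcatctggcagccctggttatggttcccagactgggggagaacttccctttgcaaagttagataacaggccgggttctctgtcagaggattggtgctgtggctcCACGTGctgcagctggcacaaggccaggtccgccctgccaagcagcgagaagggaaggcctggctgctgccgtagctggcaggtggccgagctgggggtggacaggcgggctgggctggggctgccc
Tef, second start, chr15:81811164-81811413, plus strand, E-box at -138: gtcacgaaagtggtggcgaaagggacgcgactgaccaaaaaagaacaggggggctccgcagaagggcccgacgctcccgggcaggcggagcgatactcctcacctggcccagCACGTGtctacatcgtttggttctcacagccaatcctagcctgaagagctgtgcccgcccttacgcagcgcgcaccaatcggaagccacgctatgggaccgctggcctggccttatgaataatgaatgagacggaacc
Per3, chr4:151044666-151044915, minus strand, D-boxes at -205 and -158: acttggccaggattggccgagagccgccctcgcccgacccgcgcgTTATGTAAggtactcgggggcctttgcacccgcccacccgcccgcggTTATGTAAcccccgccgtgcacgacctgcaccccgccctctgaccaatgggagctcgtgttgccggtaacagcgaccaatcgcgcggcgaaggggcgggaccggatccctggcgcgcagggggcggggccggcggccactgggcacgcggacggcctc

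A comparison of peak times with the IgG libraries was possible for the 30 genes rhythmic in both groups, out of 58 with anti-Ly6G. Peaks with anti-Ly6G were earlier in 21 and later in 9, with a median of -0.83 h. The 3 largest differences were of clock genes. Dbp was at ZT 6.23 with anti-Ly6G and ZT 10.2 with IgG, a difference of -3.95 ± 0.96 h, Nr1d2 at 6.14 and 9.89 (-3.74 ± 0.50 h), and Tef at 7.77 and 11.2 (-3.48 ± 0.83 h). Per3 was at 8.05 and 10.9 (-2.86 ± 0.81 h). Nr1d2 was the only gene that passed the test of a different rhythm (adjusted p = 9.1e-04, 0.00700% of genes, with 553 genes at an unadjusted p under 0.05). At ZT 13 it measured 12.5, 12.0 and 13.4 units with anti-Ly6G against 26.0, 18.1 and 21.7 with IgG, with no overlap, while at ZT 1 it was higher with anti-Ly6G, at 15.0 to 19.4 against 11.7 to 12.0. It stayed past the threshold without any 1 anti-Ly6G library, and the test called no gene when all libraries of ZT 1 or of ZT 13 were left out. Among genes of lipid metabolism the difference was -0.11 ± 0.97 h for Cpt1a, 0.17 ± 0.72 h for Scd2, -0.40 ± 1.02 h for Slc25a20 and -0.46 ± 0.73 h for Abcg1. For Fabp4 and Lpl it was -1.8 ± 0.97 h and -1.71 ± 1.01 h, beyond the -1.59 ± 0.83 h of the clock gene Npas2 but within the errors, and clock and lipid genes were not tested against each other. Fmo2, a flavin monooxygenase that oxidizes drugs and other foreign compounds, was at -3.17 ± 0.62 h without passing (adjusted p = 0.514).

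**Figure D3:**
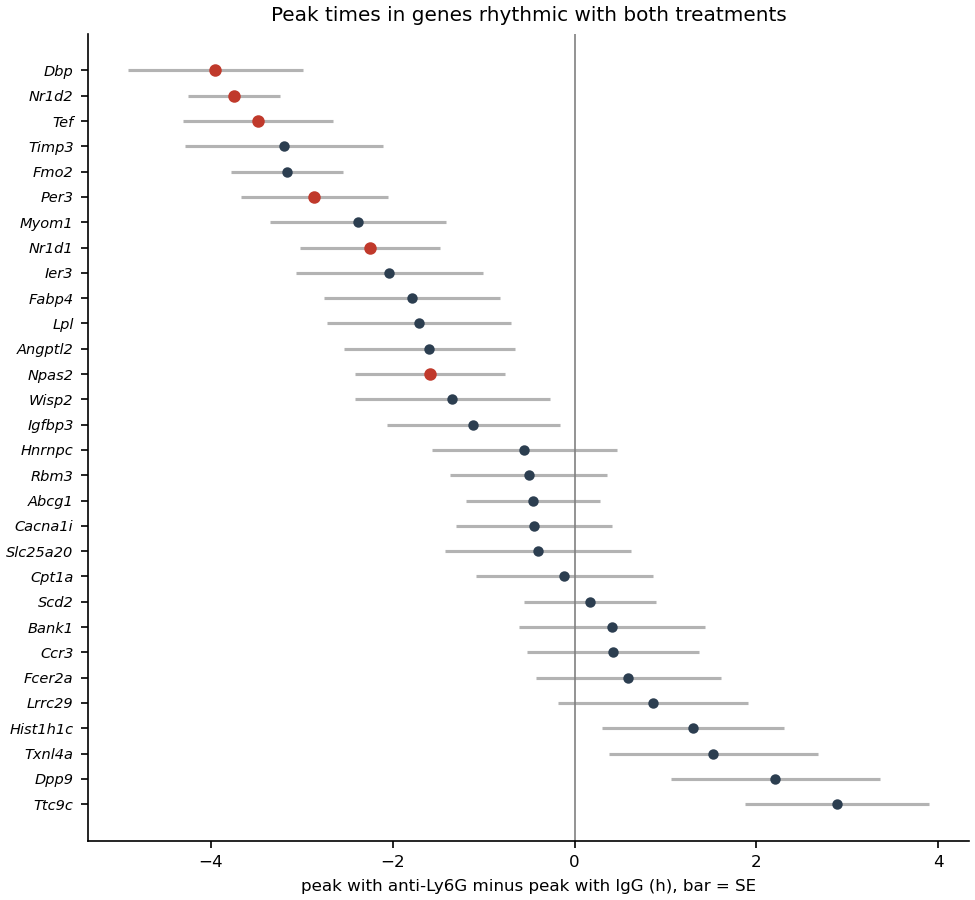
Difference in fitted peak time between anti-Ly6G and IgG (x axis, h, negative is earlier with anti-Ly6G, bars of 1 SE) for the 30 genes rhythmic in both, core clock genes in red. The 6 clock genes lie between -3.95 and -1.59 h, Cpt1a and Scd2 sit at -0.11 and 0.17 h, and Fabp4 and Lpl at -1.8 and -1.71 h.

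Of 17 tested genes of fatty acid oxidation and fasting, 2 were rhythmic, Cpt1a and Slc25a20, both with a peak near ZT 5. Cpt1a (chr19:3322334-3385733, plus strand), the gate for long-chain fatty acids entering mitochondria, measured 93.1, 107 and 118 at ZT 1, 158, 132 and 152 at ZT 5, 116, 98.8 and 106 at ZT 9, 82.9, 82.8 and 81.2 at ZT 13, 73.0, 79.4 and 89.0 at ZT 17, and 90.9, 93.5 and 84.1 at ZT 21. The ZT 5 libraries were above all others and the dark times reached 93.5 at most. The peak was at ZT 4.72 ± 0.70 h (1.72-fold, log2 amplitude 0.39 ± 0.07, adjusted p = 0.0114), and the call was just lost without ZT 5 mouse 1 (adjusted p = 0.0544). Slc25a20, the carrier that takes the carnitine ester across the inner membrane, peaked at ZT 5.00 ± 0.75 h (1.61-fold, adjusted p = 0.0220) with 29.3, 31.9 and 34.2 units at ZT 5 against 15.5 to 23.9 elsewhere. Plin2, a coat protein of lipid droplets, peaked at ZT 3.52 ± 0.77 h (1.40-fold, adjusted p = 0.0306), with 101, 99.1 and 111 units at ZT 5 against 64.4 to 87.9 elsewhere. The rhythm calls of Slc25a20 and Plin2 were lost without any 1 of the ZT 5 libraries, at an adjusted p of up to 0.0906 and 0.106, and that of Plin2 also without ZT 1 mouse 3 (0.0571) or ZT 17 mouse 2 (0.0596). Fabp4, a fatty acid carrier of fat cells and macrophages, measured 89.6, 86.1 and 120 at ZT 5 against 40.8 to 76.2 at all other times and peaked at ZT 6.05 ± 0.69 h (1.83-fold, adjusted p = 0.0114, and 0.0529 without ZT 5 mouse 1).

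In the list of fatty acid oxidation and fasting genes, 5 of 17 were higher at ZT 5 than at the other times and 0 were lower, against 0.868% higher and 2.0% lower over all genes. They were Cpt1a, Slc25a20 and, named after their values were seen, Angptl4, Acadl and Ucp3. The list's median log2 difference at ZT 5 was 0.36, against 0.00 over all genes, and 16 of its 17 members had a fitted peak in the light, against 6915 of 14289 genes. Of 6 tested fat cell markers 2, Adipoq and Fabp4, were higher at ZT 5. Fitted peaks lay in the light for 3 of the 6 and in the dark for 3. Adipoq was 42.5 to 51.0 units at ZT 5 against 24.1 to 43.9 at the other times. The adipocyte list summed to 171.9 to 221.2 units at ZT 5 against 111.4 to 165.7, with Fabp4 as its highest member. Plin1 and Cidec were at or under 1.15 in every library. Muscle RNA was also highest in ZT 5 mouse 1. Of the 5 calls at ZT 5 in the list of fatty acid oxidation and fasting, 2 held with a term for transcript length and 0 with a term for rRNA. Among the fat cell markers the ZT 5 call of Fabp4 held with either term and that of Adipoq with neither. Both measures and their limits are described further on. The part of either cell type in these results was not tested.

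Of 15 tested genes of fatty acid synthesis, 3 were rhythmic, Scd2, Scd1 and Srebf1, all with a peak at night. Scd2 (chr19:44293674-44306864, plus strand), a stearoyl-CoA desaturase that makes monounsaturated fatty acids, measured 127, 117 and 122 at ZT 1, 84.2, 92.1 and 80.3 at ZT 5, 119, 129 and 118 at ZT 9, 165, 166 and 168 at ZT 13, 174, 169 and 172 at ZT 17, and 181, 128 and 137 at ZT 21. ZT 5 was below every other library, ZT 13 and ZT 17 were tight and high, and ZT 21 reached down to the level of ZT 9. The peak was at ZT 16.6 ± 0.41 h (1.88-fold, log2 amplitude 0.45 ± 0.05, adjusted p = 1.7e-06), and the dark times were higher by a log2 difference of 0.57 ± 0.05. Scd1, the other main desaturase, peaked at ZT 16.2 ± 0.79 h (1.51-fold, adjusted p = 0.0358). It measured 75.9 to 100 units at the dark times and 52.4 to 80.4 at the light times, which overlap slightly. Srebf1, the transcription factor of lipid synthesis, peaked at ZT 17.4 ± 0.76 h (1.24-fold, adjusted p = 0.0258) and Insig1, which holds SREBP proteins in the endoplasmic reticulum, at ZT 17.2 ± 0.79 h (1.34-fold, adjusted p = 0.0362). The calls of Scd1, Srebf1 and Insig1 were lost without any 1 of 12, 6 and 10 libraries, at an adjusted p of up to 0.075, 0.0912 and 0.138.

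Abcg1 and Lpl, which were chosen by their rhythm p and not from a list, also peaked at night. Abcg1, which exports cholesterol from cells, measured 44.9, 36.1 and 36.3 at ZT 1, 32.1, 33.7 and 32.3 at ZT 5, 39.9, 41.1 and 41.7 at ZT 9, 51.0, 52.5 and 51.7 at ZT 13, 50.9, 49.2 and 48.0 at ZT 17, and 45.2, 39.6 and 46.7 at ZT 21. ZT 13 and ZT 17 did not overlap with any light time. The peak was at ZT 15.8 ± 0.50 h (1.49-fold, adjusted p = 1.1e-04). Lpl, which frees fatty acids from lipoproteins, peaked later, at ZT 20.3 ± 0.65 h (1.79-fold, adjusted p = 0.00698), with 132 to 147 units at ZT 21 and 74.4 to 82.7 at ZT 9. Of the 15 tested genes of fatty acid synthesis, 3 were higher in the dark (Scd2, Scd1 and Srebf1, against 0.252% of all genes). Lower at ZT 5 were 4 of the 15 (Scd2, Srebf1, Fasn and Acaca, against 2.0% of all genes). Of these 4 calls at ZT 5 that of Scd2 alone held with either a term for rRNA or a term for transcript length. Of 21 cholesterol synthesis genes, 7 were lower at ZT 5 and 0 were higher, against 2.0% and 0.868% of all genes. The 7 included Insig1 and, named after their values were seen, Srebf2, Cyp51, Idi1 and Dhcr7. The list's median log2 difference at ZT 5 was -0.26 and 20 of its 21 members had a fitted peak in the dark. None of these 7 calls at ZT 5 held with either of these terms.

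**Figure D4:**
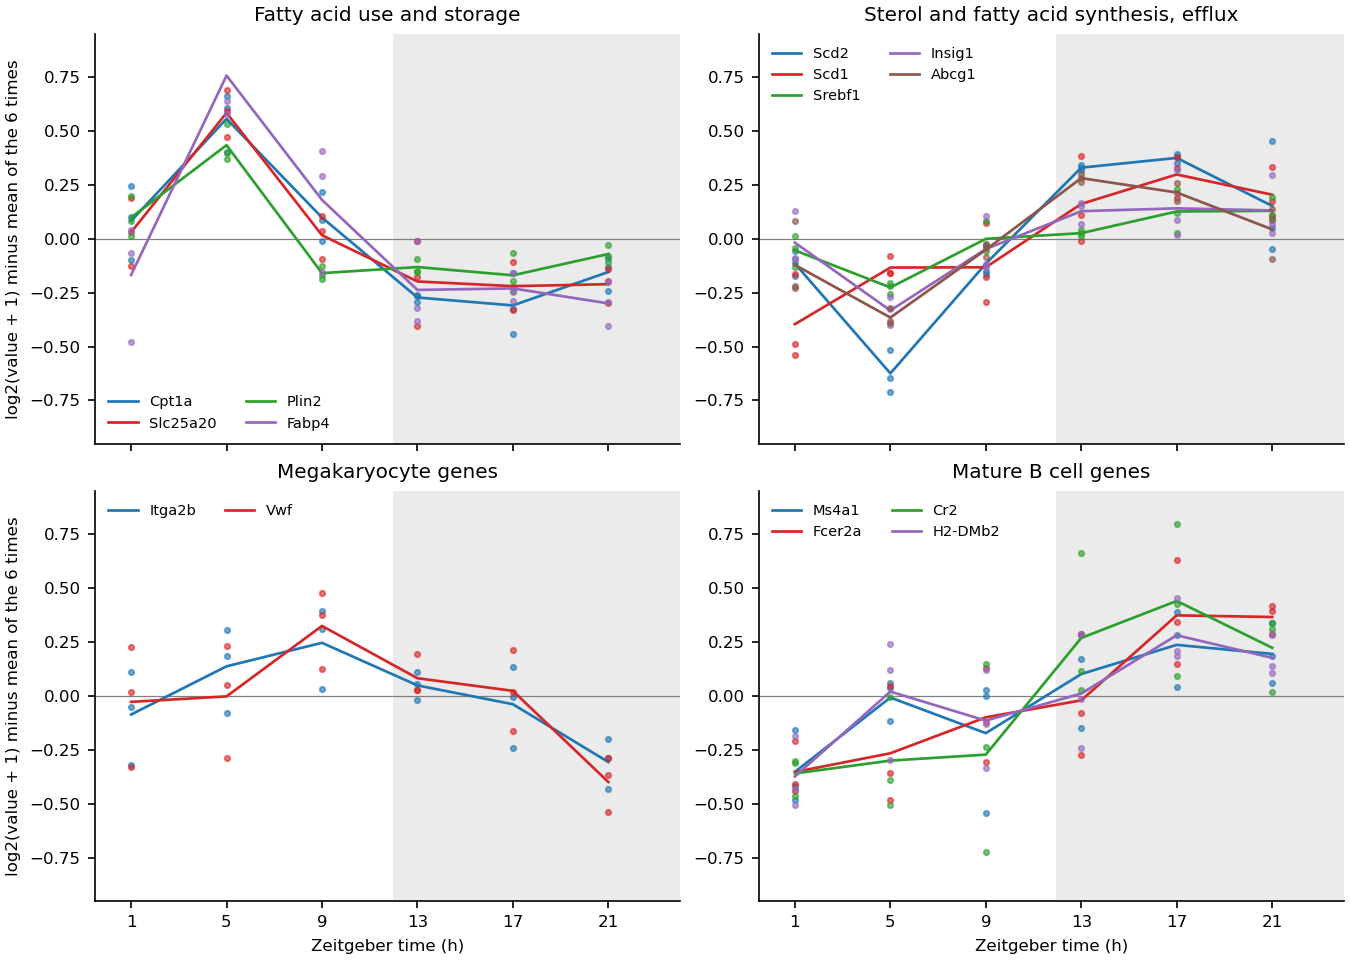
Difference of log2(value + 1) from the mean of the 6 times (y axis) by Zeitgeber time (x axis, h) for 4 groups of genes in the 18 anti-Ly6G libraries, points for libraries, lines through time means and dark times shaded. Cpt1a and Fabp4 are highest at ZT 5, where Scd2 is lowest at 80.3 to 92.1 units, Itga2b and Vwf are lowest at ZT 21, and Fcer2a is low at the light times.

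The megakaryocyte genes Itga2b and Vwf had their lowest mean levels at ZT 21. Itga2b, the platelet integrin chain, and Vwf, von Willebrand factor, differed among the 6 times (both adjusted p = 0.0488, lost without any 1 of 11 and 12 libraries, at up to 0.133 and 0.147) but did not pass as waves. Itga2b measured 321, 238 and 287 at ZT 1, 368, 338 and 281 at ZT 5, 369, 391 and 304 at ZT 9, 321, 293 and 309 at ZT 13, 296, 326 and 251 at ZT 17, and 243, 220 and 259 at ZT 21. Vwf measured 215, 146 and 186 at ZT 1, 216, 190 and 150 at ZT 5, 256, 238 and 200 at ZT 9, 187, 187 and 210 at ZT 13, 186, 213 and 164 at ZT 17, and 142, 126 and 150 at ZT 21. In both genes ZT 9 lay wholly above ZT 21, and single mice at other times were as low as ZT 21. All 14 tested members of the list had a fitted peak in the light. Pf4, a platelet chemokine, and Gp9, a part of the von Willebrand factor receptor, were higher at ZT 5, by log2 differences of 0.34 ± 0.09 and 0.32 ± 0.09 (adjusted p = 0.0437 and 0.0365), both named after their values were seen. With either the rRNA or the length term 0 of the 14 genes were higher at ZT 5 and 0 differed among the times. The list's median log2 difference at ZT 21 was -0.32, against 0.00 over all genes. Its sum was 1698 to 1961 units at ZT 21 and 2195 to 2654 at ZT 9, with no overlap, while at ZT 1 and ZT 17 the ranges reached 1722 and 1928.

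Other genes shared the low point at ZT 21, where 20 genes were lower (0.140%) and 6 higher (0.0420%) than at the other times. Fmo2 (chr1:162874317-162898726, minus strand) measured 13.5, 9.60 and 13.1 at ZT 1, 21.9, 17.6 and 22.6 at ZT 5, 19.4, 31.5 and 21.3 at ZT 9, 22.9, 19.6 and 26.0 at ZT 13, 12.3, 15.9 and 9.32 at ZT 17, and 5.91, 6.43 and 8.51 at ZT 21. Its ZT 21 libraries were below all others, and its 3.08-fold range (peak ZT 9.22 ± 0.45 h, log2 amplitude 0.81 ± 0.10, adjusted p = 1.4e-05) was the widest of the 58. Myom1, known as a sarcomere protein of the M band, peaked at ZT 8.44 ± 0.60 h (1.73-fold, adjusted p = 0.00234), with 29.1 to 33.7 units at ZT 21 and 34.7 to 66.3 at all other times. The muscle list had its highest sum at ZT 5 and its lowest at ZT 1, and all 14 of its tested members had a fitted peak in the light. Myom1 was highest in ZT 5 mouse 1 and ZT 9 mouse 2, at 66.3 and 64.9 units. Those libraries also had the largest muscle sums, 2412 and 920.4, while ZT 21 mouse 3 had a sum of 745.4 with Myom1 at 32.7. The part of muscle RNA in the course of Myom1 was not tested. Cysltr2, a leukotriene receptor, was 3.53 to 6.37 at ZT 21 (log2 difference -0.65 ± 0.12, adjusted p = 0.0150), and Shroom4, an actin-binding protein, was 3.20 to 3.90 (-0.64 ± 0.12, adjusted p = 0.0190). The call of Cysltr2 was lost without ZT 21 mouse 2 (adjusted p = 0.240), and that of Shroom4 without any 1 of the ZT 21 libraries (up to 0.157). Named after their values were seen, the platelet receptor gene G6b and Timp3, an inhibitor of matrix proteases, were also rhythmic, with 1.60-fold and 1.52-fold ranges. Higher at ZT 21 was S1pr4, a sphingosine phosphate receptor of blood cells, with 56.1, 59.0 and 59.1 units against 40.7 to 54.9 elsewhere (log2 difference 0.28 ± 0.06, adjusted p = 0.035, lost without any 1 of 8 libraries, at up to 0.167).

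Several genes of mature B cells were higher in the dark. Fcer2a, the low affinity IgE receptor CD23 of mature B cells, measured 19.2, 22.7 and 19.7 at ZT 1, 20.4, 27.3 and 18.6 at ZT 5, 24.2, 21.2 and 29.0 at ZT 9, 21.7, 25 and 32.5 at ZT 13, 41.4, 33.8 and 29.4 at ZT 17, and 35.0, 35.6 and 32.5 at ZT 21. The libraries of ZT 17 and ZT 21 were above all of the light times, and ZT 13 overlapped with both sides. The peak was at ZT 17.4 ± 0.81 h (1.62-fold, adjusted p = 0.0454), a call lost without any 1 of 13 libraries (up to 0.106). The dark times were higher by 0.48 ± 0.10 on the log2 scale (adjusted p = 0.0139, and 0.0502 without ZT 9 mouse 2). Cr2, the complement receptor CD21, was higher in the dark by 0.62 ± 0.13 (adjusted p = 0.0162, and 0.0561 without ZT 9 mouse 2), and Gimap7, a GTPase of lymphocytes, by 0.45 ± 0.09 (0.0166, and 0.0537 without the same library). Ms4a1, which encodes CD20, was higher in the dark by 0.35 ± 0.08 (adjusted p = 0.0292, lost without any 1 of 8 libraries, at up to 0.0926). Ms4a1 was the only one of 18 tested B cell markers past the dark and light threshold, while all 18 had a fitted peak in the dark, against 7374 of 14289 genes. The list's median log2 difference was 0.18. Its sum was 914.6 to 1077 units at ZT 1 and 1133 to 1418 at ZT 17, without overlap. Of 15 T and NK cell markers none passed any of these tests, and 12 had a fitted peak in the dark.

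Macrophage complement genes had their low point at ZT 13. C1qa, a chain of complement component C1q, measured 131, 113 and 127 at ZT 1, 127, 135 and 150 at ZT 5, 96.6, 101 and 114 at ZT 9, 82.5, 95.4 and 98.2 at ZT 13, 114, 121 and 121 at ZT 17, and 128, 129 and 139 at ZT 21. The libraries of ZT 13 lay below those of every time but ZT 9. The fitted peak was at ZT 0.33 ± 0.69 h (1.39-fold, adjusted p = 0.0114). C1qb followed with a peak at ZT 23.1 ± 0.72 h (1.35-fold, adjusted p = 0.0160, and 0.0512 without ZT 9 mouse 2 or 0.0576 without ZT 21 mouse 3), and C1qc differed among the times (adjusted p = 0.0286) but not as a wave (0.0895). All 3 chains were lower at ZT 13, by log2 differences of -0.41 ± 0.06, -0.32 ± 0.07 and -0.29 ± 0.07, and none of these calls held without ZT 13 mouse 1 (adjusted p = 0.107, 0.203 and 0.381). With IgG neither C1qa nor C1qb was rhythmic (adjusted p = 0.548 and 0.173), and the tests of a different rhythm did not pass (adjusted p = 0.9995 for both). Of the other 13 macrophage markers 1 passed, Hmox1, the enzyme that degrades heme, which was 298, 317 and 368 units at ZT 5 against 133 to 292 elsewhere (log2 difference 0.70 ± 0.15, adjusted p = 0.0120, and 0.151 without ZT 5 mouse 3). Of 15 markers of eosinophils, basophils and mast cells 1 was rhythmic: Ccr3, the eotaxin receptor, peaked at ZT 19.4 ± 0.79 h (1.42-fold, adjusted p = 0.0362, lost without any 1 of 9 libraries, at up to 0.117).

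Among the remaining rhythmic genes several are matrix or signalling genes of stroma. Igfbp3, which binds insulin-like growth factors, measured 13.7, 8.46 and 17.0 at ZT 1, 7.27, 10.0 and 9.10 at ZT 5, 6.87, 9.79 and 13.1 at ZT 9, 19.5, 18.1 and 12.0 at ZT 13, 18.5, 14.9 and 19.7 at ZT 17, and 21.4, 15.5 and 22.7 at ZT 21. It was high in the dark with an overlap through single mice at ZT 1, 9 and 13, and peaked at ZT 18.2 ± 0.70 h (2.16-fold, adjusted p = 0.0114, and 0.0529 without ZT 5 mouse 1). In the opposite phase were Wisp2, a matrix protein of the CCN family, at ZT 6.03 ± 0.61 h (1.97-fold, adjusted p = 0.00257), and Angptl2, a secreted angiopoietin-like protein, at ZT 6.54 ± 0.70 h (2.01-fold, adjusted p = 0.0114, and 0.0529 without ZT 5 mouse 1). Wisp2 was 5.98 to 8.95 units at ZT 17 and ZT 21 and 9.58 to 14.4 at the light times, with no overlap between these. At ZT 13 it measured 10.7, 9.26 and 8.56 and overlapped with both sides. Osteoblast and matrix genes summed to 10324 to 19407 units at ZT 21 and 4164 to 16123 at the other times, and none of the 13 members passed a test.

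Of 4 cold-induced genes of RNA-binding proteins 1 was rhythmic, Rbm3, and 2 differed among the times. Rbm3, an RNA-binding protein induced by cold, peaked at ZT 7.41 ± 0.75 h (1.44-fold, adjusted p = 0.0220, lost without any 1 of 5 libraries, at up to 0.0849), with 593, 573 and 731 units at ZT 5 against 363 to 632 elsewhere. Its relative Cirbp differed among the times (adjusted p = 0.0280) with its highest mean at ZT 9. Sik1, a kinase induced by cAMP and by light, peaked at ZT 9.20 ± 0.64 h (1.53-fold, adjusted p = 0.0056) and, like Per1, had its lowest mean at ZT 21 and little fitted range with IgG (1.03-fold, adjusted p = 0.968), while the test of a different rhythm did not pass (adjusted p = 0.804). Of 16 glucocorticoid response genes 1 was rhythmic, Per1, against 0.406% of all genes. An unadjusted p under 0.05 for the rhythm was found for 9 of the 16, against 12.5% of all genes. The list's median log2 amplitude was 0.20, against 0.07 over all genes. Hist1h1c, a linker histone, peaked at ZT 6.26 ± 0.57 h (1.47-fold, adjusted p = 9.5e-04), with 86.4 to 104 units at ZT 5 and 60.6 to 76.6 at the dark times. Slc30a10, a manganese exporter, peaked at ZT 5.02 ± 0.68 h (1.54-fold, adjusted p = 0.00997). At night stood Cacna1i, a calcium channel subunit, at ZT 15.3 ± 0.66 h (1.78-fold, adjusted p = 0.00698), Rgs2, a brake on G protein signals, at ZT 19.5 ± 0.71 h (1.29-fold, adjusted p = 0.0150, and up to 0.0695 without ZT 9 mouse 1, ZT 9 mouse 2 or ZT 21 mouse 3) and the immediate early gene Ier3 at ZT 20.2 ± 0.73 h (1.62-fold, adjusted p = 0.0186, lost without any 1 of 4 libraries, at up to 0.0759).

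Most of the 498 genes that differed among the times did so at ZT 5 or ZT 13. Of them 240 had their highest mean at ZT 13 and 224 their lowest at ZT 5, where 22.0% and 21.2% of all genes had theirs. Against the other times 124 genes were higher (0.868%) and 286 lower (2.0%) at ZT 5, and 266 were higher (1.86%) and 141 lower (0.987%) at ZT 13. At ZT 17 Scd2 was the only gene higher (0.00700%) and Nr1d2 the only one lower (0.00700%), with adjusted p of 0.326 and 0.641 without ZT 17 mouse 1. The call of Scd2 was lost without any 1 of 3 libraries, those of ZT 17, and that of Nr1d2 without any 1 of 11. At ZT 1 limma called 0 genes in either direction, with 573 higher and 678 lower at an unadjusted p under 0.05, and at ZT 9 again 0, with 648 and 662. With voom weights the counts at ZT 1 and ZT 9 were 0 and 8. These contrasts moved with transcript length. Genes lower at ZT 5 had a median transcript length of 5970.5 nt and those higher at ZT 13 of 5430 nt, against 3273 nt over all genes, while those higher at ZT 5 and lower at ZT 13 had 1932 and 1946 nt. An index of length, the median log2 deviation of genes with transcripts of at least 4702 nt minus that of genes with 2093 nt or less, was -0.22 to -0.05 in the ZT 5 libraries and 0.09 to 0.17 in the ZT 13 libraries. AY036118, a transcript of the ribosomal RNA repeat, was 8.60 to 112 units in 8 anti-Ly6G libraries (all of ZT 5, all of ZT 17 and 2 of ZT 21) and at or under 0.0386 in the other 10, whereas only 1 IgG library exceeded 1 unit.

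**Figure D5:**
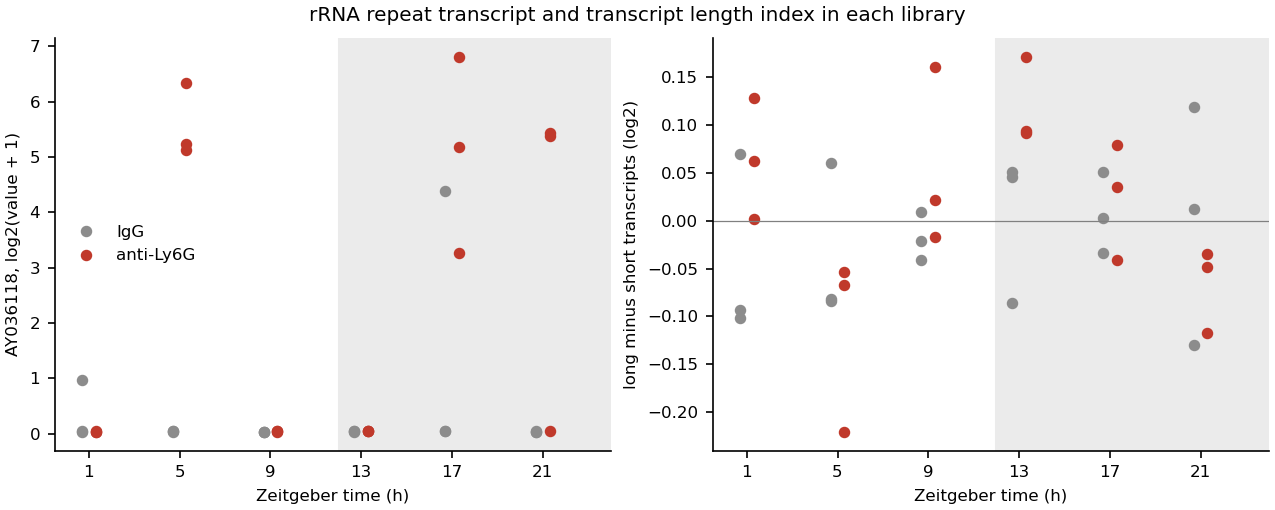
AY036118 as log2(value + 1) (left) and the transcript length index in log2 units (right) in each bone marrow library by Zeitgeber time (x axis, h), anti-Ly6G in red, IgG in grey and dark times shaded. With anti-Ly6G AY036118 is high in all libraries of ZT 5 and ZT 17, and the length index is -0.22 to -0.05 at ZT 5 and 0.09 to 0.17 at ZT 13.

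The ZT 5 and ZT 13 counts moved when these measures were added as terms. With AY036118 above 1 unit as a term 10 genes were called at ZT 5 and 70 at ZT 13, and with the length index as a term 12 and 0. AY036118 above 1 unit varied within a time only at ZT 21 with anti-Ly6G and at ZT 17 with IgG. In the fit of time means its term rested on those libraries and otherwise coincided with ZT. Calls lost or held under it therefore cannot separate rRNA from time. Without ZT 5 mouse 3, which had the lowest length index, 25 genes were called at ZT 5, and the count was 159, 225 and 242 without ZT 5 mouse 2, ZT 5 mouse 1 and ZT 1 mouse 1. Without ZT 13 mouse 1, which held the most neutrophil RNA, 1 gene was called at ZT 13, against 261 and 269 without ZT 1 mouse 3 and mouse 2 and 779 without ZT 13 mouse 2. The count of 24 h rhythms was 75 and 57 under the same terms, of which 51 and 48 were among the 58. The rhythm calls of Nr1d1, Nr1d2, Npas2, Dbp, Tef, Per1, Per3, Scd2, Scd1, Srebf1, Abcg1, Cpt1a, Slc25a20, Fabp4, Lpl, Fmo2, Myom1, C1qa and C1qb held with either term. Those of Bhlhe40 (adjusted p = 0.0549 with the AY036118 term and 0.064 with the length term) and Fcer2a (0.0593 and 0.0533) were lost with both, those of Plin2 (0.0808) and Insig1 (0.0545) with the length term and that of Ccr3 (0.0629) with the AY036118 term. Within the 10 anti-Ly6G libraries that lack AY036118 and the matching IgG libraries 1 gene was rhythmic, and within the 8 that hold it 13 were. The part of library quality in these results was not tested.

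The groups of genes that stood out at ZT 5 and ZT 13 are given with that limit. A few neutrophil genes were lower at ZT 5 and higher at ZT 13. Padi4, which citrullinates histones, measured 123, 117 and 106 at ZT 5 and 217, 165 and 139 at ZT 13, where mouse 1 was far above the others. Mmp25, a membrane protease, measured 55.3, 54.1 and 56.1 at ZT 5 and 115, 76.6 and 72.4 at ZT 13. In these lists 3 of 20 specific and gelatinase granule genes (Padi4, Mmp9 and Ceacam1) and 2 of 23 mature neutrophil genes (Mmp25 and Sorl1) were higher at ZT 13. Of 9 azurophil granule genes 0 were, and over all genes the share was 1.86%. Lower at ZT 5 were Padi4, Mmp9, Mmp25 and Sorl1, where 2.0% of all genes were lower. By limma 0 of these 52 genes were rhythmic, and voom weights called 0. With 0.406% of all genes rhythmic, 52 genes are too few to tell 0 from that share. An unadjusted p under 0.05 was found for 3 of the 52, against 12.5% of all genes. No ZT 13 call in these lists held without ZT 13 mouse 1 (adjusted p = 0.496 for Padi4 and 0.532 for Mmp25) or under either term. Among 20 erythroid genes Hba-a1, an alpha globin, was higher at ZT 5 (log2 difference 0.67 ± 0.12, adjusted p = 0.0036, and 0.0527 and 0.072 without ZT 5 mouse 2 and mouse 3), and the erythroid sum was 101732 to 135216 units at ZT 5 against 56788 to 111864 elsewhere. Of 18 heat shock genes 5 were higher at ZT 13, against 1.86% of all genes: Hspa1a, Hspa1b, Hspa8, Dnaja1 and Chordc1, chaperones or their partners. Hspa1b measured 5.40, 3.85 and 10.1 at ZT 13, 1.27 to 3.30 at ZT 5, 9, 17 and 21, and 10.6, 2.06 and 2.42 at ZT 1, so 1 mouse at ZT 1 was as high as any at ZT 13. Its log2 difference at ZT 13 was 1.13 ± 0.31 (adjusted p = 0.0410). None of the 5 calls held without ZT 13 mouse 1 or under either term.

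Several programmes gave no call for a rhythm. In 13 lists (monocytes, T and NK cells, plasma cells, osteoblast and matrix, skeletal muscle, interferon-stimulated genes, inflammatory cytokines, hypoxia and glycolysis, cytosolic ribosome, oxidative phosphorylation, proteasome, DNA replication and mitosis) limma called 0 of 244 tested genes rhythmic with anti-Ly6G. Over all genes 0.406% were rhythmic, so 0 of 244 is near that share. Of these 244 genes 24 had an unadjusted p under 0.05, against 12.5% of all genes, and voom weights called 0. The 13 lists were set with these results known, and others, such as the erythroid and B cell lists, also held no rhythmic member. Median amplitudes of the 13 lists on the log2 scale lay between 0.05 (mitosis) and 0.41 (skeletal muscle), against 0.07 over all genes. Osteoblast and matrix genes were at 0.25. In dark against light, 36 genes were higher (0.252%) and 29 lower (0.203%), a total of 65 that was 24 without ZT 9 mouse 2, 29 without ZT 1 mouse 3, 33 without ZT 21 mouse 3, 37 without ZT 9 mouse 1, and 42 and 43 without ZT 17 mouse 2 and mouse 3.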

How the data were processed

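RNA-seq of 18 anti-Ly6G and 18 IgG bone marrow libraries was used (200 ng total RNA, single reads of 50 nt, per the labels' protocols). The deposited signal was made by the authors from RSEM expected counts, scaled to library depth. The low values fit a count plus 0.5, scaled per library, and 34.2% of recovered counts were whole within 0.001. The submitters' processing notes name CASAVA 1.8, cutadapt 1.7.1, RSEM 1.7.1 and limma 3.46 with build mm10, while the extract protocol gives RSEM 1.2.20. The normalization method is not given in the sources used here.

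Here log2(value + 1) of 14289 of 16335 genes with a mean of at least 1 was fitted with limma 3.58.1 (mean-variance trend) in R 4.3.3, with both treatments sharing 1 estimate of spread. F tests covered the 24 h cosine and sine and the 6 time means, and contrasts set dark against light and each ZT against the other 5. P-values were adjusted by Benjamini-Hochberg over genes within each test at 0.05. They set differences against the spread between mice, and in the wave fit also against departures of the time means from a wave. Effects shared by all libraries of a time are not covered. Peak-to-trough folds are on the log2(value + 1) scale and understate low genes. The tests were checked on simulated data. Genes varied independently there, so the check does not cover shifts shared by many genes of a library. Alternatives were the pseudocount, filter, scaling, voom weights, a fit of anti-Ly6G alone and leaving out libraries or times. Terms for rRNA and transcript length and the split by AY036118 were chosen after seeing the data. The rRNA term nearly coincides with ZT in the fit of time means, so there it cannot separate rRNA from time. Named genes were the core clock list, the 20 smallest rhythm p-values outside it, the 12 smallest for the 6 times, the 8 largest dark differences each way, the 4 largest at each ZT each way, the 3 smallest for differential rhythm and up to 4 members per list. The members and lists were chosen with earlier results of these data known. Gene positions are from GENCODE M21 (GRCm38) and promoters from RefSeq (GRCm38.p6). Some genes are not reported here.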

Additional observations from a re-analysis of the deposited data

Results flagged for a closer look

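The daily rhythm of Nr1d2 differed between anti-Ly6G and IgG bone marrow by limma's test of the difference itself (adjusted p = 0.000906), the only such gene of 14289 tested. Its fitted peak was at ZT 6.14 ± 0.32 h with anti-Ly6G (2.53-fold) and at ZT 9.89 ± 0.39 h with IgG (2.14-fold). At ZT 13 all 3 anti-Ly6G mice were below all 3 IgG mice. The light cabinet of each mouse is not in the labels, so its part was not tested.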

How the results depend on the processing

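No paired analysis was possible because the bone marrow labels number the libraries serially and give no number that anti-Ly6G and IgG mice share within a time. Over the tests of single named genes, 5464 of 6895 recomputed values stayed on their side of the threshold and 1431 lost it. A change of direction could be scored only for rhythms and contrasts past the threshold in the main fit, and 0 were found there. For the test among the 6 times and that of a different rhythm no direction was scored. Fitting anti-Ly6G alone, with fewer samples, gave 30 rhythmic genes in place of 58, 128 in place of 498 among the 6 times, 26 in place of 65 for dark against light, 242 in place of 410 at ZT 5, 1 in place of 0 at ZT 9, 131 in place of 407 at ZT 13 and 15 in place of 26 at ZT 21. With the rRNA term the counts were 95 among the times, 42 for dark, 10 at ZT 5, 2 at ZT 9, 70 at ZT 13, 1 at ZT 17 and 17 at ZT 21. With the length term they were 84 among the times, 110 for dark, 12 at ZT 5, 0 at ZT 13 and 8 at ZT 21. At ZT 9 there were 5 with a filter at a mean of 4, 6 after quantile normalization and 8 with voom weights. At ZT 17 there was 1 in place of 2 with pseudocount 5 or voom weights, and at ZT 21 7 with voom weights. Libraries with AY036118 at or under 1 gave 1 rhythmic gene and the anti-Ly6G libraries above 1, fitted alone, gave 13. These 2 fits cover different times and cannot be compared. Rhythmic genes numbered 787, 33, 27 and 7 without ZT 1, 5, 9 and 21, those among the times 64, 191 and 315 without ZT 5, 13 and 21, and those of differential rhythm 0 without ZT 1 or ZT 13. Leaving out 1 library gave 28 to 147 rhythmic genes, 177 to 677 among the times, 24 to 84 for dark, 0 to 5 at ZT 1, 25 to 553 at ZT 5, 0 to 12 at ZT 9, 1 to 779 at ZT 13, 0 to 3 at ZT 17 and 6 to 70 at ZT 21. The rhythm count was within 1.5 times of 58 under both other pseudocounts and filters, quantile normalization, voom weights and either added term. Apart from the smaller fits named above, the cause was not tested. With 3 mice per time, genes near 1 unit rest on few reads, which limits Npas2 and Nr1d1.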

Other observations

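Neutrophil lists in the marrow did not separate the 2 treatments by a lower level with anti-Ly6G. The azurophil granule list, genes of early neutrophil precursors, summed to a median of 4573 units (4032 to 6052) with anti-Ly6G and 3309 (2936 to 4192) with IgG over 18 libraries each, and the specific and gelatinase granule list to 22299 to 40086 and 20176 to 26268.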
